A study of Vernicia fordii and Jatropha curcas with 4 samples.

Results

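Nuclear-encoded photosynthesis proteins were followed in developing seeds of Jatropha curcas, the physic nut, and of the tung tree, Vernicia fordii, both oil trees of the spurge family. The members are 55 Arabidopsis loci of the antennae, both photosystems, the electron carriers, the chloroplast ATP synthase, Rubisco and the Calvin cycle, and a contig belongs to a member where the deposited table matches it to that locus code. Of the 55 loci, 38 had a contig in the Jatropha table and 38 in the Vernicia table, among 13319 and 13333 loci with a code, and 31 had one in both. RNA from 3 seeds was mixed before each library, and each species has 2 libraries, 1 from the fast stage of oil accumulation (37 days after pollination in Jatropha and 135 days in Vernicia) and 1 from the early stage (29 days in Jatropha and 90 days in Vernicia). The labels name endosperm as the source and seeds as the tissue. No genotype or treatment is given beyond the species, and the trees were 3 years old. The value columns of the tables are numbered 8 and 7, without a link from number to stage in any label used here. These numbers serve as names below (library 8, library 7), and no difference has a direction in time.

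In plant cells, pigment-binding antenna proteins pass light energy to photosystem II, which splits water, and to photosystem I, which reduces ferredoxin. Plastocyanin and the cytochrome b6f complex carry electrons between the photosystems, and the ATP synthase uses the proton gradient that results. Rubisco fixes carbon dioxide onto the sugar phosphate that phosphoribulokinase makes. Many oilseeds are green for part of their development, and in rapeseed embryos Rubisco is known to recapture carbon dioxide released during oil synthesis without a complete Calvin cycle. The tables pair contigs with locus codes and hold no gene names, so the roles given here are those of the Arabidopsis loci, as general background.

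Levels are RPKM (read numbers corrected for contig length and for how many reads of the library mapped), summed over the contigs of a locus. Differences are log2((library 8 + 1)/(library 7 + 1)) of these sums, which understates the difference of low loci. A locus was counted as higher or lower when it was at least 2-fold apart on this scale, among loci with at least 1 RPKM in either library. There was 1 library per stage, so no difference has a replicate check and none was tested. Read totals are unknown, so no counting error can be given, and values under 1 RPKM may rest on very few reads.

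In Jatropha seeds the mRNAs of the light reactions were far less abundant in library 8 than in library 7, while the leading Rubisco small subunit locus and phosphoribulokinase were more abundant. In Vernicia seeds the light reactions stood at a similar level in both libraries, and the same pair of carbon fixation loci was again higher in library 8. The antennae, photosystems and carriers summed to 60.22 RPKM in Jatropha library 8 and 638.45 RPKM in library 7, and to 507.50 and 555.39 RPKM in Vernicia libraries 8 and 7. Rubisco small subunits, activase and Calvin cycle loci summed to 227.99 RPKM in Jatropha library 8 and 63.83 RPKM in library 7, and to 236.20 and 85.68 RPKM in Vernicia libraries 8 and 7. The members together had 310.97 RPKM in Jatropha library 8, against 721.33 RPKM in library 7. In Vernicia they had 777.40 RPKM in library 8, against 676.49 RPKM in library 7. They were a small part of each library, with 0.038% and 0.0653% of all RPKM in Jatropha libraries 8 and 7, and 0.103% and 0.1001% of all RPKM in Vernicia libraries 8 and 7. A bulk library cannot tell fewer green cells from less of these mRNAs per cell.

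**Figure D1:**
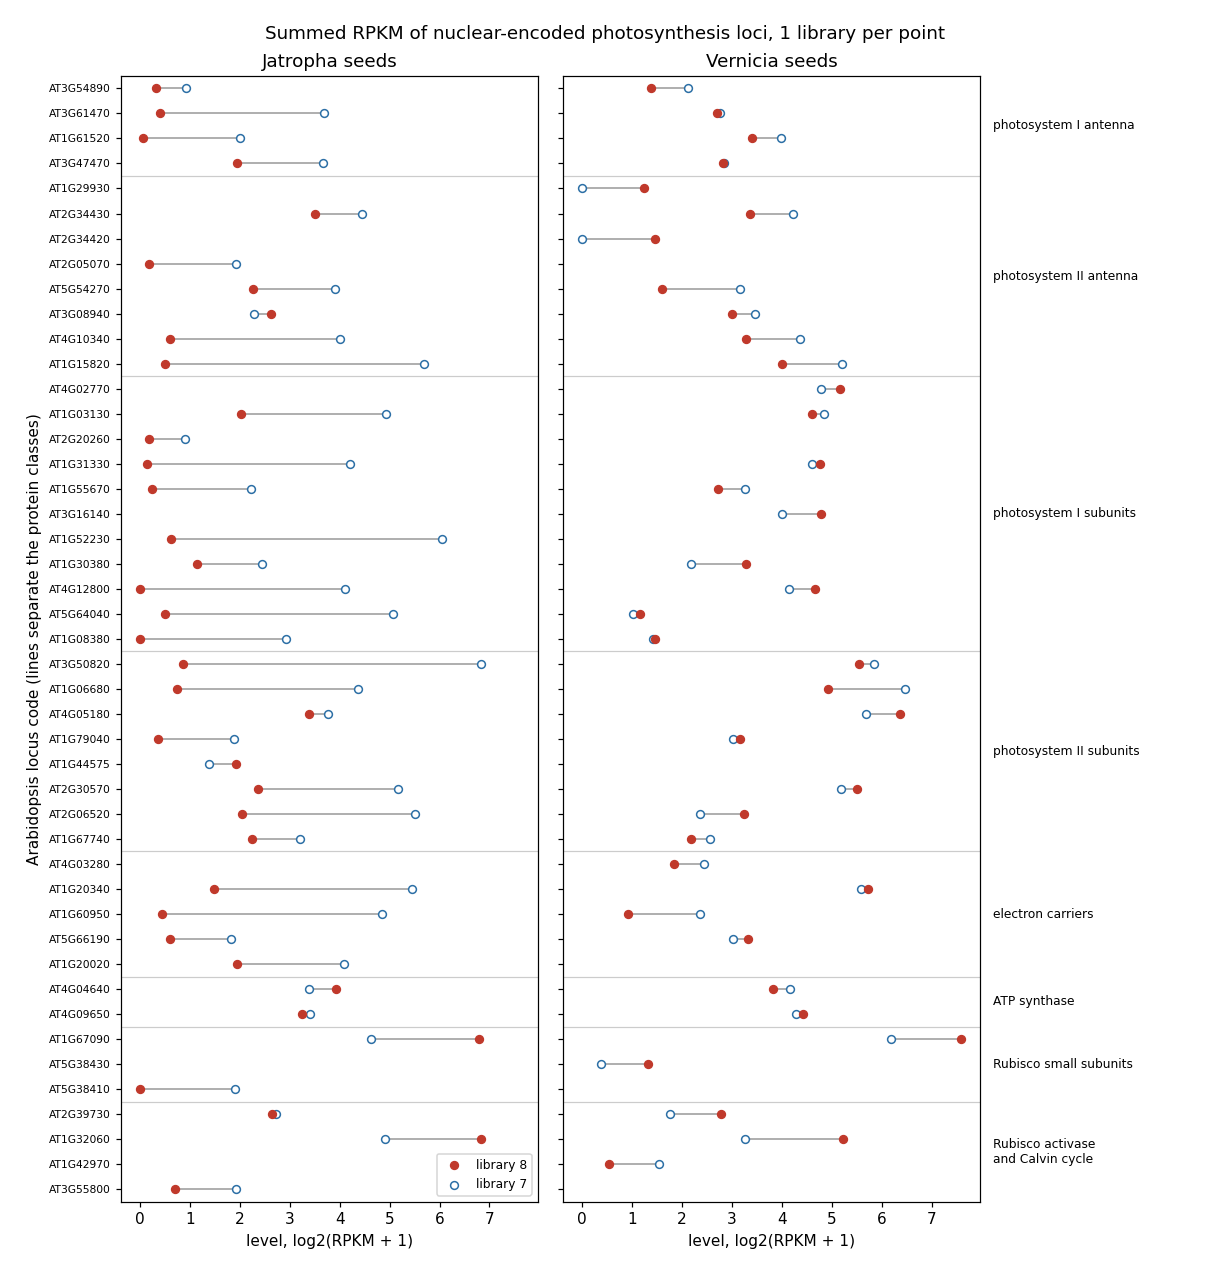
Level of each member with a contig, as log2(RPKM + 1) of the RPKM summed per locus, in Jatropha (left) and Vernicia (right). Filled points are library 8 and open points library 7, a grey line joins the libraries of a locus, and a locus without points has no contig in that table. In Jatropha most filled points lie far to the left of the open ones, while in Vernicia most pairs lie closer together. Among the Jatropha exceptions are ATP synthase, AT1G67090, AT1G32060, AT1G44575, AT3G08940, AT2G39730 and AT4G05180.

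The typical member stood near the level of the typical locus in Jatropha library 7 and Vernicia library 8, below it in Vernicia library 7 and far below it in Jatropha library 8. The median member had 0.745 RPKM in Jatropha library 8 and 12.3 RPKM in library 7, where the median of all loci with a code was 5.81 and 12.3 RPKM. In Vernicia the median member had 8.70 RPKM in library 8 and 8.65 RPKM in library 7, and the median of all loci was 8.99 and 12.7 RPKM. Ranked among all loci of its library, the median member stood at percentile 11.3 in Jatropha library 8 and 49.9 in library 7, and at percentile 49.0 and 39.0 in Vernicia libraries 8 and 7. Under 1 RPKM were 20 of the 38 Jatropha members in library 8 and 2 in library 7, against 2 and 3 of the 38 Vernicia members. The share of all loci under 1 RPKM was not taken per library. At 1 RPKM or more in both libraries were 18 of the 38 Jatropha members and 11009 of the 13319 Jatropha loci. In Vernicia these were 33 of the 38 members and 11876 of the 13333 loci. The order of the members by level was more alike between the Vernicia libraries (Spearman rho 0.89 over 38 loci) than between the Jatropha libraries (0.23 over 36 loci). These are descriptions over loci that share a library.

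Of the 38 Jatropha members, 36 reached 1 RPKM in either library, and 26 of these were at least 2-fold lower in library 8 and 2 at least 2-fold higher. Among all 12931 Jatropha loci tested, 46.9% were lower and 7.15% higher, so lower loci were common throughout the library. At a 4-fold limit 16 of the 36 members were lower and 1 higher, against 16.0% and 2.80% of all loci. The median member differed by -1.92 on the log2 scale and the median locus by -0.93, and 28 of the 36 members lay below the median locus. Library 8 reads lower for most loci as deposited, so the counts were also taken after median-ratio scaling, which removes the shift shared by most contigs. After that scaling 22 members were lower and 5 higher, against 24.0% and 15.1% of all loci. Of the 36 members, 18 reached the filter through library 7 alone and could only read lower. The other 18 had at least 1 RPKM in both libraries, with 8 lower (44.4%) and 2 higher (11.1%). Of all 11009 Jatropha loci at 1 RPKM or more in both libraries, 43.4% were lower and 6.02% higher, so the lower share of these 18 members was near that of all loci.

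In Vernicia all 38 members with a contig reached 1 RPKM in either library, with 6 lower and 6 higher by at least 2-fold. Among all 12896 Vernicia loci tested, 18.8% were lower and 7.70% higher. The share of members was 15.8% in each direction, near the background on the lower side and above it on the higher side. Of the 33 members at 1 RPKM or more in both Vernicia libraries, 4 were lower and 4 higher (12.1% each), against 17.5% and 6.29% of all such loci. No member was past a 4-fold limit, against 2.57% of all loci lower and 2.66% higher. The median member differed by 0.09 and the median locus by -0.48, and 11 of the 38 members lay below the median locus. After median-ratio scaling 3 members were lower and 10 higher (7.89% and 26.3%), against 9.34% and 11.2% of all loci. The counts moved with the scaling, while the median member stayed above the median locus, by 0.57 as deposited and 0.49 scaled.

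**Figure D2:**
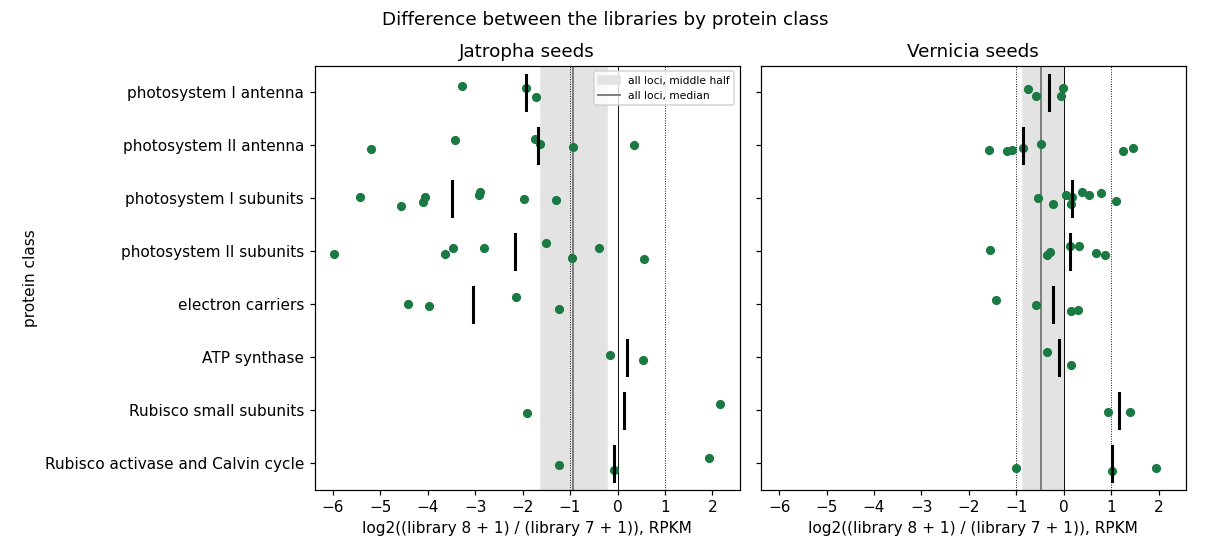
Difference between the libraries, log2((library 8 + 1)/(library 7 + 1)) of RPKM, for each tested member by protein class, in Jatropha (left) and Vernicia (right). Black bars are class medians, dotted lines the 2-fold limits, the grey line the median of all loci and the grey band their middle quartiles. The Jatropha class medians of the antennae, photosystems and carriers lie between -3.49 and -1.69. Those of ATP synthase, Rubisco and the Calvin cycle lie near 0 as deposited, and at 0.97, 0.54 and 0.65 after median-ratio scaling. The Rubisco median is that of only 2 loci, at 2.17 and -1.91 as deposited. The activase and Calvin cycle median is that of 3 loci, from -1.24 to 1.92.

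The antenna proteins bind chlorophyll and hand light energy to the reaction centres. Of the photosystem I antenna loci in Jatropha, 3 of 3 tested were lower in library 8, against 46.9% of all loci, with a class median of -1.93. Only AT3G47470 reached 1 RPKM in both libraries, and the others could only read lower. AT3G61470 (Lhca2), the most abundant locus of the class in library 7, had 0.33 RPKM in library 8 and 11.96 RPKM in library 7, a difference of -3.28. AT3G47470 (Lhca4) had 2.84 RPKM in library 8 and 11.66 RPKM in library 7, a difference of -1.72. AT3G54890 (Lhca1) stayed under 1 RPKM in both Jatropha libraries, at 0.25 and 0.90 RPKM in libraries 8 and 7. In Vernicia none of the 4 loci was 2-fold apart, where 18.8% of all loci were lower and 7.70% higher. AT1G61520 (Lhca3), the most abundant there, had 9.58 RPKM in library 8 and 14.88 RPKM in library 7.

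The antenna of photosystem II had 4 of 6 tested loci lower in Jatropha library 8 and none higher, against 46.9% and 7.15% of all loci. Of the lower loci only AT5G54270 reached 1 RPKM in both libraries. AT1G15820, which encodes the minor antenna protein Lhcb6 (CP24), had 0.41 RPKM in library 8 and 50.49 RPKM in library 7, a difference of -5.19. AT4G10340, the minor antenna protein Lhcb5 (CP26), had 0.51 RPKM in library 8 and 15.16 RPKM in library 7, a difference of -3.42. The class was not uniform. AT2G34430, the one Lhcb1 locus with a Jatropha contig, had 10.39 RPKM in library 8 and 20.85 RPKM in library 7, just short of the limit at -0.94. AT3G08940, a locus of Lhcb4 (CP29), had 5.16 RPKM in library 8 and 3.85 RPKM in library 7, a difference of 0.34. After median-ratio scaling this locus stood at 1.07. Then 3 of the 6 loci were lower and 1 higher, against 24.0% and 15.1% of all loci.

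In Vernicia this antenna had the lowest median of the classes, at -0.85. AT1G15820 had 14.99 RPKM in library 8 and 35.84 RPKM in library 7, a difference of -1.20, and AT4G10340 had 8.70 RPKM in library 8 and 19.52 RPKM in library 7, a difference of -1.08. AT5G54270, the Lhcb3 locus, had 2.04 RPKM in library 8 and 8.01 RPKM in library 7, a difference of -1.57. All 3 were past the limit in both species as deposited. After median-ratio scaling none of them was, with AT1G15820 and AT4G10340 at -0.82 and -0.72 in Vernicia and AT5G54270 at -0.94 in Jatropha. The higher loci of the class in Vernicia were Lhcb1 loci at very low level. AT1G29930 had 1.37 RPKM and AT2G34420 had 1.74 RPKM in library 8, and both were listed at 0 in library 7.

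Photosystem I passes electrons from plastocyanin to ferredoxin, and its subunits were lower throughout in Jatropha. All 8 tested loci were at least 2-fold lower in library 8, against 46.9% of all loci, with a class median of -3.49. The range was -5.43 to -1.30. After median-ratio scaling 7 of the 8 were lower, against 24.0% of all loci. Only AT1G03130 and AT1G30380 reached 1 RPKM in both libraries. The other loci passed the filter through library 7 alone and could only read lower. The class summed to 5.69 RPKM in library 8 and 176.46 RPKM in library 7. AT1G52230, a PsaH locus, led it with 0.54 RPKM in library 8 and 65.34 RPKM in library 7, a difference of -5.43. AT5G64040, the lumenal subunit PsaN, had 0.42 RPKM in library 8 and 32.52 RPKM in library 7, a difference of -4.56. AT1G31330, the subunit PsaF at which plastocyanin docks, had 0.11 RPKM in library 8 and 17.47 RPKM in library 7, a difference of -4.06. AT4G12800 (PsaL) and AT1G08380 (PsaO) were listed at 0 in library 8, with 16.14 and 6.55 RPKM in library 7. AT1G03130, a locus of PsaD, the subunit at which ferredoxin docks, kept 3.09 RPKM in library 8, against 29.47 RPKM in library 7.

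The same class lay level in Vernicia, at 153.19 RPKM in library 8 and 124.45 RPKM in library 7. Of its 9 loci 8 were within 2-fold and 1 was higher, where 18.8% of all Vernicia loci were lower and 7.70% higher. Most Vernicia loci thus stayed within 2-fold as well. The class median was 0.17. AT4G02770, the other PsaD locus, had 34.90 RPKM in library 8 and 26.64 RPKM in library 7. AT3G16140, the PsaH locus with a Vernicia contig, had 26.56 RPKM in library 8 and 15.07 RPKM in library 7, a difference of 0.78, or 1.17 after median-ratio scaling. As deposited AT1G30380, the subunit PsaK, was the 1 member at least 2-fold apart in opposite directions in the species. It had 8.69 RPKM in Vernicia library 8 and 3.51 RPKM in library 7, a difference of 1.10. In Jatropha it had 1.22 RPKM in library 8 and 4.46 RPKM in library 7, a difference of -1.30, or -0.78 and short of the limit after median-ratio scaling.

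Of the photosystem II subunits tested in Jatropha, 5 of 8 were lower in library 8 and none higher, against 46.9% and 7.15% of all loci. Of the lower loci only AT2G30570 and AT2G06520 reached 1 RPKM in both libraries. AT3G50820, a locus of PsbO, which stabilises the manganese cluster of water oxidation, was the most abundant member of Jatropha library 7 and had the largest deficit. It had 0.81 RPKM in library 8 and 113.21 RPKM in library 7, a difference of -5.98. This locus joined 2 contigs. The main contig, comp30677_c0, had 0.33 RPKM in library 8 and 112.89 RPKM in library 7, and comp2386663_c0 had 0.48 and 0.32 RPKM. AT1G06680, PsbP of the same complex, had 0.68 RPKM in library 8 and 19.78 RPKM in library 7, a difference of -3.63.

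Other subunits of photosystem II held some level in Jatropha library 8. AT4G05180, a locus of PsbQ, had 9.50 RPKM in library 8 and 12.69 RPKM in library 7, a difference of -0.38. AT1G44575, the PsbS protein of non-photochemical quenching, by which excess light energy is lost as heat, had 2.82 RPKM in library 8 and 1.59 RPKM in library 7, a difference of 0.56. After median-ratio scaling AT1G44575 stood at 1.22, past the limit, and AT4G05180 at 0.39, on the other side of 0. In Vernicia 6 of the 7 loci of the class were within 2-fold, where 18.8% of all loci were lower and 7.70% higher. AT1G06680 was the exception, with 29.40 RPKM in library 8 and 88.00 RPKM in library 7, a difference of -1.55. AT4G05180 had 82.00 RPKM in library 8 and 50.74 RPKM in library 7, a difference of 0.68, or 1.08 after median-ratio scaling. AT2G06520, the small subunit PsbX, had 8.42 RPKM in Vernicia library 8 and 4.15 RPKM in library 7, a difference of 0.87, or 1.24 after that scaling. In Jatropha it had 3.13 RPKM in library 8 and 44.72 RPKM in library 7, a difference of -3.47.

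All 4 electron carrier loci tested in Jatropha were lower in library 8, against 46.9% of all loci, with a median of -3.06. After median-ratio scaling 3 of the 4 were lower, against 24.0% of all loci. Of the 4, AT1G60950 and AT5G66190 reached the filter through library 7 alone and could only read lower. AT1G20340 encodes plastocyanin, which carries electrons to photosystem I. It had 1.79 RPKM in library 8 and 42.97 RPKM in library 7, a difference of -3.98. AT1G60950, a leaf-type ferredoxin, had 0.35 RPKM in library 8 and 27.84 RPKM in library 7, a difference of -4.42. AT1G20020, a leaf-type ferredoxin-NADP reductase, had 2.86 RPKM in library 8 and 15.98 RPKM in library 7, a difference of -2.14. In Vernicia plastocyanin had 52.15 RPKM in library 8 and 46.88 RPKM in library 7. The ferredoxin was the 1 of 4 carriers lower there, against 18.8% of all loci. It had 0.90 RPKM in library 8, under the filter, and 4.12 RPKM in library 7, a difference of -1.43.

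The root-type ferredoxin AT2G27510, which serves plastids that do not photosynthesise, was not a member and was set beside the leaf type. It had 252.48 RPKM in Jatropha library 8 and 241.20 RPKM in library 7, and 99.51 and 105.74 RPKM in Vernicia libraries 8 and 7. It was more abundant per length than the leaf-type locus in all 4 libraries, with a difference of 0.07 in Jatropha and -0.09 in Vernicia as deposited.

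The ATP synthase loci were within 2-fold in both species as deposited. AT4G04640, the gamma subunit, had 14.25 RPKM in Jatropha library 8 and 9.45 RPKM in library 7, and 13.15 and 16.96 RPKM in Vernicia libraries 8 and 7. AT4G09650, the delta subunit, had 8.51 and 9.60 RPKM in Jatropha libraries 8 and 7, and 20.55 and 18.46 RPKM in Vernicia libraries 8 and 7. Each joined several contigs, whose differences lay on both sides of 0 in Vernicia for both loci and in Jatropha for the delta subunit. In Jatropha the delta contig comp20904_c0 had 5.01 RPKM in library 8 and 1.58 RPKM in library 7, while comp8931_c0 had 3.50 RPKM in library 8 and 8.02 RPKM in library 7. After median-ratio scaling the gamma subunit stood at 1.33 in Jatropha, past the limit.

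Rubisco has a large subunit encoded in the chloroplast and small subunits encoded in the nucleus, and its leading small subunit locus was higher in library 8 of both species. This locus, AT1G67090, had 109.97 RPKM in Jatropha library 8 and 23.74 RPKM in library 7, a difference of 2.17. In Vernicia it was the most abundant member of library 8, with 192.14 RPKM in library 8 and 72.40 RPKM in library 7, a difference of 1.40. Nearly all of it came from 1 contig per species in library 8. The Jatropha contig comp29726_c0 had 109.97 RPKM in library 8 and 19.50 RPKM in library 7, while the second contig, comp334245_c0, was listed at 0 in library 8 and had 4.24 RPKM in library 7. The Vernicia contig comp27163_c0 had 189.31 RPKM in library 8 and 71.83 RPKM in library 7, and the other 3 contigs of the locus had at most 1.69 RPKM. The remaining small subunit loci were low. AT5G38410 was listed at 0 in Jatropha library 8 and had 2.75 RPKM in library 7, and AT5G38430 had 1.5 RPKM in Vernicia library 8 and 0.31 RPKM in library 7.

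Phosphoribulokinase, AT1G32060, which makes the substrate of Rubisco, showed the same pattern as AT1G67090. It had 112.13 RPKM in Jatropha library 8 and 28.93 RPKM in library 7, a difference of 1.92. In Vernicia it had 36.20 RPKM in library 8 and 8.65 RPKM in library 7, a difference of 1.95. Of the 30 members tested in both species, this pair alone exceeded the 2-fold limit upward in both (6.67%, against 1.85% of all loci tested in both). In Jatropha library 8, AT1G67090 held 35.4% and AT1G32060 36.1% of the summed RPKM of the tested members, against 3.30% and 4.02% in library 7. In Vernicia AT1G67090 held 24.7% in library 8 and 10.7% in library 7, and AT1G32060 held 4.66% in library 8 and 1.28% in library 7. Without this pair the tested members summed to 88.49 RPKM in Jatropha library 8 and 666.90 RPKM in library 7, and to 549.06 and 595.44 RPKM in Vernicia libraries 8 and 7.

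Other enzymes of carbon fixation differed less or were lower. AT2G39730, the activase that keeps Rubisco in its active form, had 5.27 RPKM in Jatropha library 8 and 5.59 RPKM in library 7. In Vernicia it had 5.91 RPKM in library 8 and 2.41 RPKM in library 7, just past the limit. AT3G55800, the Calvin cycle enzyme sedoheptulose-1,7-bisphosphatase, had 0.62 RPKM in Jatropha library 8 and 2.82 RPKM in library 7, a difference of -1.24, or -0.86 after median-ratio scaling, and no Vernicia contig had its code. AT1G42970, a subunit of the NADP-dependent glyceraldehyde-3-phosphate dehydrogenase of the cycle, had 0.45 RPKM in Vernicia library 8 and 1.91 RPKM in library 7, and no Jatropha contig had its code.

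**Figure D3:**
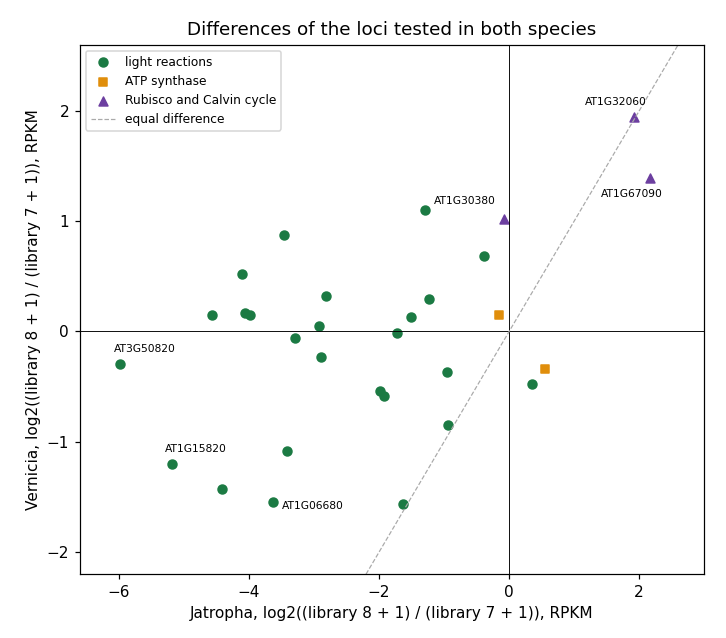
Difference between the libraries in Jatropha (x axis) and Vernicia (y axis), log2((library 8 + 1)/(library 7 + 1)) of RPKM, for the 30 members tested in both species, marked by kind, with a dashed line of equal differences. The light reaction loci spread from -5.98 to 0.34 in Jatropha and from -1.57 to 1.10 in Vernicia, and AT1G67090 and AT1G32060 lie at the upper right.

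Of the same 30 members, 15 (50.0%) passed the limit downward in Jatropha and stayed within 2-fold in Vernicia, as did 34.5% of all 11054 loci tested in both. Of these 15, only AT3G47470, AT1G03130, AT2G30570, AT2G06520 and AT1G20340 reached 1 RPKM in both Jatropha libraries. The rest passed the filter through library 7 alone and could only read lower, so the 15 cannot be weighed against the 34.5%. Another 5 members (16.7%) passed the 2-fold limit downward in both species, against 9.55% of all loci. These were AT1G15820, AT4G10340, AT5G54270, AT1G06680 and AT1G60950, and after median-ratio scaling the number was 2. Of the 5, only AT5G54270 reached 1 RPKM in both libraries of each species. The rest passed the filter in Jatropha through library 7 alone and could only read lower there, AT1G60950 also in Vernicia. The difference was below 0 in Jatropha and above 0 in Vernicia for 13 members, below 0 in both for 13, above 0 in both for 2 and above 0 in Jatropha and below 0 in Vernicia for 2. It was lower in Jatropha than in Vernicia for 27 of the 30 (90.0%), against 65.5% of all loci, and for 23 of the 30 once the median of all loci was subtracted in each species. The share of all loci was not taken for the 23 or for the counts of signs, so these have no background. Across these 30 loci Pearson's r between the species was 0.45 and Spearman's rho 0.29, as a description of loci that share libraries. The tables were normalized separately, so levels were not compared between species, and the labels do not say whether equal numbers stand for equal stages.

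Of the 55 loci, 10 had a contig in neither table, among them 2 of the 5 Lhcb1 loci, and 17 had none in each species. Of the members with a contig, 6 in Jatropha and 8 in Vernicia joined several, and the contigs of 4 and 5 of these differed in opposite directions. Values of near-identical family members are uncertain, since the counting could have split their reads, and a contig goes to 1 locus code whichever copy it descends from.

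Neighbouring steps of the pathway were read from lists of 51 other loci. In Jatropha 33 of these were tested, with 17 at least 2-fold lower in library 8 (51.5%, against 46.9% of all loci) and 2 higher (6.06%, against 7.15%), and a median of -1.09. In Vernicia 35 were tested, with 4 lower (11.4%, against 18.8%) and 2 higher (5.71%, against 7.70%), and a median of -0.29. These shares were near or below those of all loci. After median-ratio scaling 10 were lower and 7 higher in Jatropha, against 24.0% and 15.1% of all loci. In Vernicia 4 were then lower and 3 higher, against 9.34% and 11.2% of all loci. Chlorophyll synthesis loci in Jatropha were lower at 12 of 17 (70.6%) and higher at 1, with a median of -1.66, and lower at 8 of 17 after median-ratio scaling. As deposited, AT3G59400, AT3G56940, AT5G54190, AT1G03630 and AT5G18660 reached the filter of 1 RPKM through library 7 alone and could only read lower. AT3G56940, the cyclase that forms the fifth ring of chlorophyll, had 0.35 RPKM in library 8 and 25.71 RPKM in library 7, a difference of -4.31. In Vernicia 2 of 15 were lower and none higher. AT5G13630, the H subunit of magnesium chelatase, which inserts magnesium into the ring, had 3.66 RPKM in library 8 and 19.61 RPKM in library 7 there, a difference of -2.14.

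Other Calvin cycle enzymes lay near the median of all loci in both species, at -0.91 in Jatropha and -0.50 in Vernicia. AT3G12780, a plastid phosphoglycerate kinase, had 4.43 RPKM in Jatropha library 8 and 21.43 RPKM in library 7, a difference of -2.05. AT2G21330, a plastid aldolase, had 2.55 RPKM in Vernicia library 8 and 15.41 RPKM in library 7, a difference of -2.21. Among other antenna and photosystem proteins, AT3G22840, an early light-induced protein, had 99.96 RPKM in Jatropha library 8 and 2.80 RPKM in library 7, a difference of 4.73. In Vernicia AT3G27690, a further Lhcb2 locus, had 6.03 RPKM in library 8 and 10.77 RPKM in library 7. AT1G19150 (Lhca6), named after its values were seen, was the 1 Vernicia locus of that list past the limit, with 5.49 RPKM in library 8 and 0.68 RPKM in library 7, a difference of 1.95. AT2G20570 encodes GLK1, a transcription factor that activates antenna and chlorophyll genes in Arabidopsis. It had 38.95 RPKM in Vernicia library 8 and 6.87 RPKM in library 7, a difference of 2.34, and no Jatropha contig had its code. The light-response regulator HY5, AT5G11260, had 13.89 RPKM in Jatropha library 8 and 8.75 RPKM in library 7, a difference of 0.61, or 1.40 after median-ratio scaling. The root-type ferredoxin-NADP reductase loci had the values 11.89 and 28.88 RPKM in Jatropha libraries 8 and 7 (AT1G30510), and 11.14 and 17.24 RPKM in Vernicia libraries 8 and 7 (AT4G05390). As deposited AT1G30510 differed by -1.21, but by -0.43 after median-ratio scaling.

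**Figure D4:**
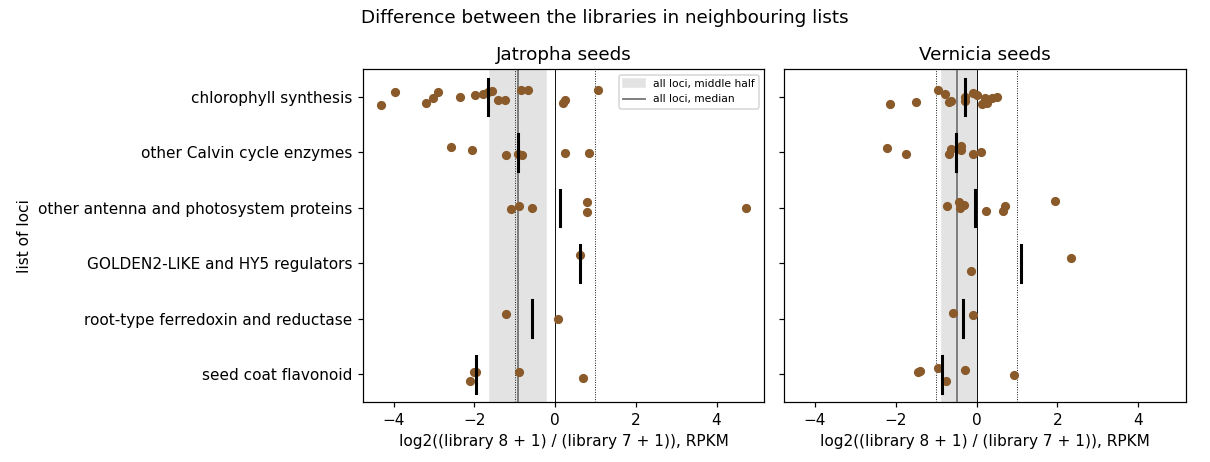
Difference between the libraries, log2((library 8 + 1)/(library 7 + 1)) of RPKM, for the loci of neighbouring pathway lists and of the seed coat flavonoid list with at least 1 RPKM in either library, in Jatropha (left) and Vernicia (right). Black bars are list medians, dotted lines the 2-fold limits, and the grey line and band the median and middle quartiles of all loci. The chlorophyll synthesis median is -1.66 in Jatropha and -0.28 in Vernicia.

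Markers of other seed tissues were set beside the members. Storage protein and oleosin loci, which mark storage tissue and do not tell endosperm from embryo, summed to 215426 RPKM in Jatropha library 8 and 1731 RPKM in library 7. Of these loci 4 of 8 were at least 2-fold higher, against 7.15% of all loci. In Vernicia they summed to 90073 RPKM in library 8 and 514 RPKM in library 7, with 6 of 7 higher, against 7.70% of all loci. Flavonoid loci that mark the seed coat in Arabidopsis were lower at 3 of 5 in Jatropha, against 46.9% of all loci, with a median of -1.96 and sums of 72.29 RPKM in library 8 and 73.88 RPKM in library 7. Most of these sums came from AT5G13930, chalcone synthase, with 65.52 RPKM in Jatropha library 8 and 40.41 RPKM in library 7. Each other Jatropha locus of the list had less RPKM in library 8. Of the 3 past the limit only AT1G61720 reached 1 RPKM in both libraries. AT4G22880 and AT5G48100 passed the filter through library 7 alone and could only read lower. In Vernicia 2 of 6 were lower, against 18.8% of all loci, with a median of -0.85 and sums of 66.62 RPKM in library 8 and 63.36 RPKM in library 7. There AT1G61720, anthocyanidin reductase, had 53.75 RPKM in library 8 and 27.86 RPKM in library 7, and each other locus had less in library 8. No detected marker of either list was listed at 0 in any library. The part of the tissue makeup in the differences of the photosynthesis loci was not tested.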

How the data were processed

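Polyadenylated RNA of developing seeds was sequenced from directional libraries, per the labels' protocols, with RNA of 3 seeds mixed per library. The authors deposited RPKM values of assembled contigs, 1 table per species, and for part of them an Arabidopsis locus code of TAIR10. That the values are RPKM comes from the tables' names. Per the submitters' processing notes, Bowtie and edgeR were used, with neither version nor role stated. The assembler, the search that assigned codes and the counting method were not given in the sources used here, nor was an annotation build.

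The tables held 45411 contigs for Jatropha and 49582 for Vernicia. The deposited RPKM summed to 817400 and 1104588 in Jatropha libraries 8 and 7, and to 751745 and 676071 in Vernicia libraries 8 and 7. Samples were grouped by species, and the libraries of a species are not replicates. RPKM was summed per locus, 1 RPKM was added, and loci reaching 1 RPKM in either library were compared within each species, over the whole table. Median-ratio scaling multiplied library 8 by 1.78 in Jatropha and 1.32 in Vernicia. No test was run.

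The members and lists were chosen with earlier results of these data known. Loci described in full were, per class and species, the most abundant one, and per species the 3 with the largest difference in each direction among those with at least 10 RPKM. Of each neighbouring list, the locus with the largest absolute difference was named, also among those with at least 10 RPKM. Further members were added after their values were seen. The summing and calling steps were tested on simulated data, with 4-fold changes at single-contig loci of at least 10 RPKM. That simulation does not cover changes at low loci or at loci of several contigs, nor the scalings. Python 3.11.15, pandas 2.3.3, NumPy 2.4.6, SciPy 1.17.1 and matplotlib 3.10.9 were used.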

Additional observations from a re-analysis of the deposited data

Results flagged for a closer look

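Members whose difference had opposite signs in the species are listed with the Jatropha log2 difference minus the Vernicia one. None of these was tested, as there are no replicates, and the listing takes equal library numbers to stand for equal stages, which the labels do not say. The photosystem I subunits gave -4.71 for AT5G64040, -4.62 for AT4G12800, -4.23 for AT1G31330, -2.96 for AT1G08380 and -2.40 for AT1G30380. The photosystem II subunits gave -4.34 for AT2G06520, -3.14 for AT2G30570, -1.65 for AT1G79040 and -1.06 for AT4G05180. The carriers gave -4.13 for AT1G20340 and -1.52 for AT5G66190. Outside these classes AT2G39730 gave -1.09, AT4G09650 -0.30, AT3G08940 0.82 and AT4G04640 0.89. As deposited only AT1G30380 was at least 2-fold apart in both species. Under the scalings tried, the sign turned for 3 of the 15 in Jatropha and for 3 of the 15 in Vernicia.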

How the results depend on the processing

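Under the 4 other scalings no member past the 2-fold limit as deposited changed sign, while several medians near 0 did. Taken contig by contig, AT1G67090 in Jatropha split into 2.44 and -2.39. In Jatropha, where 26 members were lower and 2 higher as deposited with a median of -1.92, the higher members numbered 5 with equal totals outside the top 100 contigs, median-ratio and trimmed mean scaling, at medians of -1.70, -1.72 and -1.72, where 16.5%, 15.1% and 15% of all loci were higher. A pseudocount of 0.1 RPKM gave a median of -3.14 and one of 5 RPKM -0.92. A filter of 10 RPKM left 17 of 22 lower at -3.35, where fewer loci enter and 53.8% of the 8024 entering were lower. Contigs on their own gave 4 of 41 higher at -1.74 (8.38% of all contigs), and a 4-fold limit 16 lower and 1 higher (16.0% and 2.8%). The log2 ratio of the summed RPKM was -1.21 as deposited, -0.78 with equal totals, -0.29 outside the top 100, -0.38 with median-ratio and -0.39 with trimmed mean scaling.

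In Vernicia, where 6 were lower and 6 higher with a median of 0.09, median-ratio and trimmed mean scaling each gave 3 lower and 10 higher, at medians of 0.36 and 0.35 (9.34% and 9.48% of all loci lower, 11.2% and 11.1% higher). The median was -0.024 with equal totals and 0.22 outside the top 100. A pseudocount of 5 RPKM left 2 lower and 2 higher (8.2% and 4.82% of all loci), a filter of 10 RPKM 3 lower and 2 higher of 19 (20.2% and 8.35%), and a 4-fold limit 0 of each. The log2 ratio of the sums was 0.20 as deposited, and 0.048, 0.41, 0.60 and 0.59 with equal totals, outside the top 100, median-ratio and trimmed mean scaling.

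Class medians after median-ratio scaling were, in Jatropha, -1.28 for the photosystem II antenna, -1.70 for photosystem II, -2.44 for carriers, 0.97 for ATP synthase, 0.54 for Rubisco and 0.65 for activase and Calvin cycle. In Vernicia they were 0.036 and -0.48 for the photosystem I and II antennae, 0.56 and 0.50 for photosystems I and II, 0.13 for carriers, 0.28 for ATP synthase, 1.49 for Rubisco and 1.37 for activase and Calvin cycle. With the highest contig alone they were -0.47 for ATP synthase, 0.26 for Rubisco and 0.40 for activase and Calvin cycle in Jatropha, and 0.38 for photosystem I and 0.89 for activase and Calvin cycle in Vernicia.

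Over the 8 settings that give a value per locus AT1G67090 stayed between 2.0 and 3.08 in Jatropha and between 1.24 and 1.80 in Vernicia, and AT1G32060 between 1.79 and 2.83 and between 1.59 and 2.34. AT3G50820 stayed between -6.96 and -4.35 in Jatropha. The cause of these shifts was not tested. No paired analysis was possible because there are no replicates and nothing was tested. Leaving out a library was not run, since 1 would remain per species. The reads behind a value are not known, which limits values under 1 RPKM.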
